A study of Mus musculus with 12 samples.

Results

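The 78 mitochondrial ribosomal protein genes examined here are the autosomal protein-coding genes whose symbol begins with Mrpl or Mrps followed by a number, out of 20661 autosomal protein-coding genes. Chromatin immunoprecipitation followed by sequencing had been run on cKit+ bone marrow cells, the fraction of the marrow that is rich in blood stem and progenitor cells, sorted from C57BL/6 mice. Wild type mice (WT) and mice of the genotype labelled Phf6R274X Tg (Tg), a transgene with a truncating change in the leukaemia-associated chromatin protein Phf6, were each profiled for H3K27ac, H3K4me1 and H3K4me3, with 2 libraries per genotype and mark and 12 in all. The design lists 2 mice per genotype, without saying which library came from which mouse, so p-values measure only the spread between these libraries. The promoter and cell type that drive the transgene and the ages of the mice are not given in the sources used here. The series asks whether the Phf6 change alters the chromatin state of these cells.

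Mitochondria translate the few proteins encoded by their own genome on a dedicated ribosome, whose protein parts are all encoded in the nucleus, made in the cytosol and imported. The large subunit joins amino acids and the small subunit reads the messenger RNA; many of the proteins descend from bacterial ribosomal proteins, and others exist only in mitochondrial ribosomes. H3K4me3 marks active promoters, H3K27ac marks active promoters and enhancers, and H3K4me1 marks enhancers and the flanks of promoters. By role, 51 members belong to the large subunit and 26 to the small one, with 46 bacterial homologues and 31 mitochondria-specific proteins. Symbols mislead in 3 cases: Mrps30 and Mrps18a lie in the large subunit, and Mrps36 is now known as a part of the 2-oxoglutarate dehydrogenase complex and was left out of both subunits.

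For each library the authors' list of peaks gives only where a mark was called, so 2 lengths were used per gene. The covered length is the number of base pairs (bp) under peaks within 10 kb of either annotated gene end. The end peak width is the width of the widest peak within 1 kb of either end. The widest peak of a gene can be a different peak in different libraries and need not lie over the start. Peak names inside the 4 H3K4me3 lists name the other genotype than the label does, and the names match the labels in the other 8 lists, so each H3K4me3 direction below is by label only. The H3K4me1 lists of replicate 2 cover more of the genome in both genotypes, and all H3K4me1 lists together range from 66.3 to 120 Mb, against 28.5 to 45.7 Mb for H3K27ac and 38.3 to 43.6 Mb for H3K4me3. Read depth is unknown, and fewer marked cells cannot be told apart from fewer marked alleles per cell in bulk material. Of 8 progenitor marker genes, Kit, Cd34 and Gata2 among them, all 8 had an H3K4me3 end peak in all 4 libraries, as had 6 of 10 marker genes of other blood and stromal cells. An H3K27ac end peak in all 4 libraries was present at 5 of the 8 and 2 of the 10, and Cd34 and Gata2 had none in any library.

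Promoter sequences of the members at the ends of the H3K4me3 width range are shown first, because the promoter letters are what the widths below surround. RefSeq promoter entries (build GRCm38.p6, the assembly called mm10) matched 69 of the 78 members with 75 entries, each of 250 bases before the gene start and 50 after it. The lines below give the 250 bases before the start, 5′ to 3′ on the gene's strand. Mrps18b and Mrpl41 had the widest H3K4me3 end peaks, Mrps2 and Mrpl22 the narrowest among members with an entry, and Mrpl3 was, with Mrpl11, the narrowest among those with such a peak in every library. The Mrps2 and Mrpl22 lines lie inside the annotated gene models, before the later start in the promoter table. Capitals mark letters of the searched motifs, named for the factors NRF1 (GCGCATGCG, and its core TGCGCA), ETS (CCGGAAG), SP (GGGCGG), NFY (CCAAT) and YY1 (AAGATGGCG) or for the TATA box (TATAAA), on either strand; the NRF1 letters can overlap those of the core, which reads the same on both strands.
Mrps18b chr17:35916441-35916690 (- strand): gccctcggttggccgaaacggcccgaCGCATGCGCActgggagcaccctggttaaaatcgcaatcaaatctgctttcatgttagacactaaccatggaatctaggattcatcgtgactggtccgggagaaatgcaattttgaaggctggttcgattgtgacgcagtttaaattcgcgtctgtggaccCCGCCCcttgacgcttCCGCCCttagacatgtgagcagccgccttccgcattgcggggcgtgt
Mrpl41 chr2:24975099-24975348 (- strand): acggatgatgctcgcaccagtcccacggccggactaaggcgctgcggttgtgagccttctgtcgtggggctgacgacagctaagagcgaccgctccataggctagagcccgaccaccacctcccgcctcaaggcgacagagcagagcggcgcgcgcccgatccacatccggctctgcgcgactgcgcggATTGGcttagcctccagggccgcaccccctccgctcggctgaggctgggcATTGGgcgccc
Mrps2 chr2:28467816-28468065 (+ strand): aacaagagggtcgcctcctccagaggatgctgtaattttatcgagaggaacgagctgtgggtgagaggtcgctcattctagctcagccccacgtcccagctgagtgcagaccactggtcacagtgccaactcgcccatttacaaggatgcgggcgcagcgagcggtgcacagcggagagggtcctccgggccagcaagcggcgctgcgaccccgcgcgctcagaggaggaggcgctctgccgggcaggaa
Mrpl22 chr11:58171414-58171663 (+ strand): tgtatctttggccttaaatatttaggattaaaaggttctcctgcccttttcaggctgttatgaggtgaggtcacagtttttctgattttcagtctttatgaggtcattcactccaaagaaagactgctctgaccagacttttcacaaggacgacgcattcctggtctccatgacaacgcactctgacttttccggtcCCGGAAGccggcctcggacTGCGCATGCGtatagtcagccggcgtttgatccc
Mrpl3 chr9:105053018-105053267 (+ strand): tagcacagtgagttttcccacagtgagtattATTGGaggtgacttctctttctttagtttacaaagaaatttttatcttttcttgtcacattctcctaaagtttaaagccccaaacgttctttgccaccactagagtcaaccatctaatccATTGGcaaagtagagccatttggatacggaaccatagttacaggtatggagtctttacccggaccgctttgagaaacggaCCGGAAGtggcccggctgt

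Within the 250 bases shown, Mrps18b and Mrpl22 hold the full NRF1 letters, Mrpl22 and Mrpl3 the ETS letters, and Mrps2 none of the searched letters. Mrps18b also holds the ETS letters in its full window of 300 bases. Over the full 300-base windows, 60% of member promoters (45 of 75) held at least 1 of the NRF1, NRF1 core, ETS and YY1 letters, against 30.3% of the promoters of H3K4me3-marked genes and 21.7% of all 20084 autosomal promoters. H3K4me3-marked genes are, here and below, the 12462 autosomal genes with an H3K4me3 end peak in all 4 libraries, 75 members included. The ETS letters stood in 34.7% of member promoters, against 17.1% in marked genes and 11.9% in all. The NRF1 core stood in 29.3%, 13.3% and 9.81% in the same order, the full NRF1 letters in 9.33%, 3.42% and 2.38%, and the YY1 letters in 10.7%, 2.74% and 1.83%. NRF1 is known as a regulator of nuclear genes for mitochondrial proteins, ETS-type factors and YY1 as regulators of many housekeeping genes. Mrpl9, Mrpl10, Mrpl17, Mrpl22, Mrpl32, Mrpl39 and Mrps18b held the full NRF1 letters, and Mrpl35, Mrpl36, Mrpl37, Mrpl42, Mrps11, Mrps18a, Mrps24 and Mrps27 the YY1 letters. The SP letters stood in 52% of member promoters, below the 62.6% of marked genes, and the NFY letters were near even at 40%, 37.6% and 38.1%. The TATA-box letters stood in 6.67% of member promoters, 7.30% of marked and 12.7% of all promoters. The median member promoter was 58.7% G or C with 21 CG pairs, against 61% and 20 pairs in marked genes. A match describes the letters only and shows no binding.

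**Figure D1:**
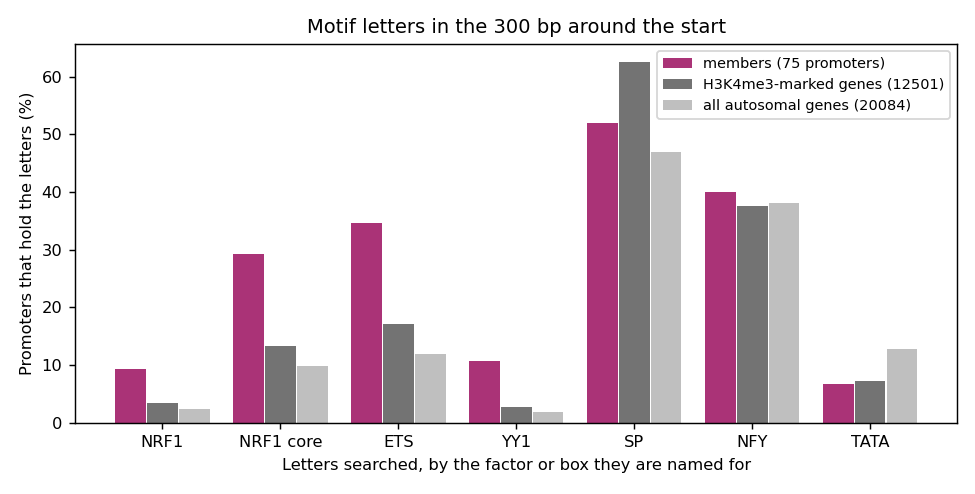
Share of 300-base promoter windows (y axis, %) that hold each set of motif letters on either strand (x axis), for member promoters, promoters of H3K4me3-marked genes and all autosomal promoters. The ETS bar stands at 34.7% for members and 17.1% for marked genes, while the SP bar is lower for members, 52% against 62.6%.

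Every member carried H3K4me3 and H3K27ac nearby in all libraries. A peak within 10 kb was present in all 4 libraries at 78 of 78 members for H3K27ac, 76 for H3K4me1 and 78 for H3K4me3, against 56.5%, 65.2% and 70.5% of all autosomal genes. Mrps9 and Mrpl3, both homologues of bacterial ribosomal proteins, had no H3K4me1 peak in the window in Tg replicate 1. An end peak was present in all 4 libraries at 73, 65 and 75 members for H3K27ac, H3K4me1 and H3K4me3, against 44.5%, 45.7% and 60.3% of all autosomal genes. Mrpl22, Mrps2 and Mrpl4 had no H3K27ac end peak in any library, and Mrpl4 also no H3K4me1 end peak. For Mrps2 and Mrpl22, the annotated gene model begins 2115 and 1621 bp before the start in the promoter table, so the 1 kb zone around the gene end misses the promoter. At the promoter-table start of Mrps2, H3K27ac peaks were 486 and 559 bp wide in WT against 475 and 470 bp in Tg, and H3K4me3 peaks 1313, 1255, 1184 and 1220 bp. In all, the start lay over 1 kb inside the gene model at 6 of the 69 members with a known start (Mrpl18, Mrpl22, Mrpl24, Mrpl36, Mrps2 and Mrps23), whose end peaks can miss the promoter.

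Around the start, the members shared a layout: H3K4me3 and H3K27ac over the start and H3K4me1 on the downstream shoulder. H3K4me3 covered the start of 68 of 69 members in all 4 libraries, and Mrpl45 in 3. In the per-library mean, 99.6% ± 0.725 of member starts lay under H3K4me3 (SD, n = 4 libraries), against 92.0% ± 0.597 in marked genes. H3K27ac covered 66 and 64 starts in WT and 56 and 65 in Tg, a mean of 90.9% ± 6.63, against 66.9% ± 6.14 in marked genes. It covered the start in all 4 libraries at 54 members and in none at Mrpl20 and Mrpl34, both large-subunit homologues of bacterial proteins. H3K4me1 covered the start of 67 of 69 members in no library. The exceptions were Mrpl20, with peaks of 1011, 922 and 564 bp in WT replicates 1 and 2 and Tg replicate 2, and Mrpl23, with peaks of 366 and 502 bp in the WT and Tg libraries of replicate 2. H3K4me1 thus lay over 1.81% ± 1.39 of member starts against 13.7% ± 5.52 in marked genes. At 1000 bp downstream it lay over 77.2% of members (62.3% to 87.0% in single libraries) against 48.8% (36.3% to 60.2%). At 1000 bp upstream the shares were 36.2% ± 11.4 and 34.2% ± 9.75.

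H3K4me3 and H3K27ac also reached less far into member genes. At 2000 bp downstream, H3K4me3 lay over 2.54% ± 1.39 of members and 20.9% ± 1.26 of marked genes, and H3K27ac over 0.725% ± 0.837 and 8.05% ± 1.97. H3K4me3 peaks over the start reached a median of 777 ± 57.4 bp upstream and 1068 ± 38.3 bp downstream in members, against 692 ± 31.6 and 1245 ± 42.1 bp in marked genes (medians over genes, mean and SD of 4 libraries). H3K27ac peaks reached 514 ± 55.0 bp upstream and 648 ± 74.4 bp downstream, against 588 ± 88.9 and 877 ± 71.3 bp. The downstream side was the longer for 67.3% ± 2.85 of member H3K4me3 peaks and 80.1% ± 0.358 of those in marked genes. These shares come from the same libraries and share their peak calling, and no test was made over genes. The median member gene is 7691 bp long against 22067 bp for marked genes, so the far end of a member lies closer to its start.

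**Figure D2:**
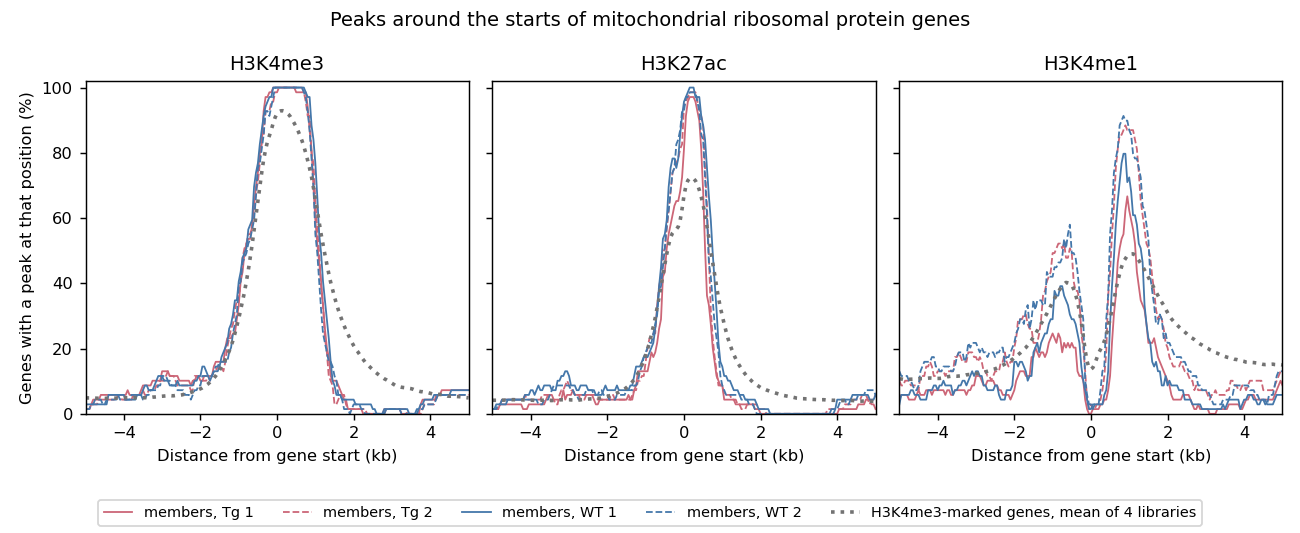
Share of genes with a peak at each position (y axis, %) against distance from the gene start in the direction of transcription (x axis, kb), for 69 members in each library and for H3K4me3-marked genes as the mean of 4 libraries. H3K4me1 of members falls to 1.81% at the start and stands at 77.2% at 1 kb downstream, and H3K4me3 of members is at 2.54% at 2 kb, where marked genes are at 20.9%.

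Member genes also lay close to other genes. Of 69 members with a start, 23 (33.3%) had the start of another gene within 1 kb upstream on the other strand, against 12.4% of marked genes and 7.79% of all autosomal genes. The partners include Fau, which encodes a protein of the cytosolic ribosome, 192 bp from Mrpl49; Ndufb5, a complex I subunit gene, 308 bp from Mrpl47; Sars2, the mitochondrial seryl-tRNA synthetase gene, 147 bp from Mrps12; and Psma2, a proteasome gene, 205 bp from Mrpl32. Mrpl46 and Mrps11 are members that face away from each other with starts 42 bp apart on chromosome 7, and they share their H3K27ac and H3K4me3 end peaks. The H3K4me3 peak was 2215 and 1996 bp wide in the libraries labelled WT and 2353 and 2232 bp in those labelled Tg. The end of another gene lay within 1 kb of a member's end for 44 of 78 (56.4%), against 25.6% of all autosomal genes. A peak in a member's window can therefore belong to its neighbour, whose part was not separated.

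The member end peaks were narrower than those of marked genes in every library for H3K27ac, and slightly narrower for the other marks. The median H3K27ac end peak of members measured 1260 and 1188 bp in WT against 964 and 1152 bp in Tg. That of marked genes measured 1671, 1548, 1142 and 1435 bp in the same order. For H3K4me3 the member medians were 1981 and 1793 bp in libraries labelled WT and 1903 and 1844 bp in those labelled Tg, against 2117, 1931, 2048 and 2003 bp. For H3K4me1 they were 671.5 and 1073 bp in WT against 568 and 980 bp in Tg, where marked genes had 705.5, 1152, 645 and 1094 bp. Members with an end peak were thus below marked genes with one in all 12 libraries, by the most in H3K27ac. Genes without an end peak in a library are left out of these medians. An H3K27ac end peak was present at 93.6% to 96.2% of members and 75.5% to 79.9% of marked genes in single libraries. The 79 cytosolic ribosomal protein genes, which serve the other ribosome of the cell, had wider peaks: 1755 ± 177 bp for H3K27ac and 2876 ± 260 bp for H3K4me3, where members had 1141 ± 126 and 1880 ± 80.8 bp (medians, mean and SD of 4 libraries). The 35 genes of complex I subunits stood between, at 1380 ± 244 and 2207 ± 137 bp.

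**Figure D3:**
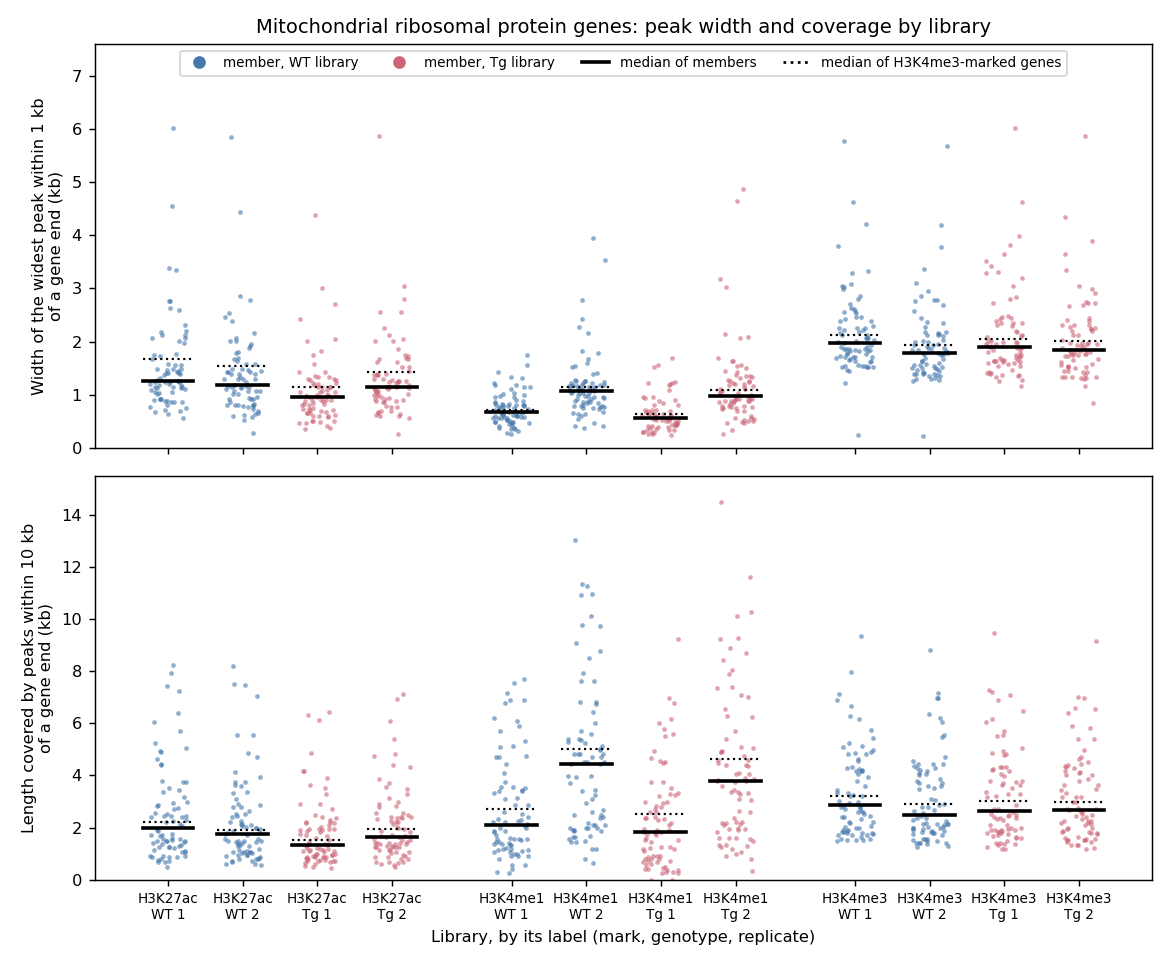
End peak width (upper panel, kb) and covered length (lower panel, kb) of each member in each of the 12 libraries (x axis, by label), with the member median as a solid line and the median of H3K4me3-marked genes as a dotted line. The upper panel leaves out genes without an end peak in that library. In it the solid line is below the dotted one in every library, and the H3K4me1 libraries of replicate 2 stand above those of replicate 1.

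By role, large-subunit genes had longer covered lengths than small-subunit genes. The median H3K4me3 covered length was 2935 ± 210 bp in the large subunit and 2272 ± 178 bp in the small one, and that of H3K27ac 1832 ± 269 and 1401 ± 204 bp, with no overlap between the 4 library values of either subunit. The end peak widths overlapped, at 1983 ± 125 and 1799 ± 104 bp for H3K4me3 and 1255 ± 171 and 1045 ± 99.5 bp for H3K27ac. Within the large subunit, mitochondria-specific members had a median H3K4me3 covered length of 3823 ± 181 bp and bacterial homologues 2559 ± 167 bp. In the small subunit these lengths were 2199 ± 254 and 2333 ± 145 bp, with mitochondria-specific members the longer in the libraries labelled WT (2570 and 2137 bp against 2481 and 2135.5 bp) and the shorter in those labelled Tg (2002 and 2086.5 bp against 2333 and 2381.5 bp). For H3K27ac mitochondria-specific members had the longer median in all 4 libraries in both subunits, at 2031 ± 246 against 1774 ± 278 bp in the large one and 1748 ± 410 against 1357 ± 226 bp in the small one. For H3K4me3, the 5 other mitoribosomal proteins without an Mrp symbol (Dap3, Ptcd3, Chchd1, Aurkaip1 and Gadd45gip1) had a median covered length of 5149 ± 142 bp. These medians are descriptions of gene groups, each measured in the same 4 libraries.

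Mrps18b, a mitochondria-specific protein of the small subunit on chromosome 17 (35910380 to 35916440), had the widest H3K4me3 and H3K27ac end peaks of all members. Its H3K4me3 peak measured 5779 and 5679 bp in libraries labelled WT and 6026 and 5862 bp in those labelled Tg, on average wider than in 99.0% of autosomal genes. Its H3K27ac peak measured 6011 and 5854 bp in WT against 4378 and 5869 bp in Tg, with Tg replicate 1 apart from the others. The start of Ppp1r10, which encodes a regulator of protein phosphatase, lies 756 bp away on the other strand. Its relatives were narrower: Mrps18c, also of the small subunit, had H3K4me3 end peaks of 2069, 2150, 1995 and 2115 bp, and Mrps18a of the large subunit 1522, 1389, 1360 and 1448 bp (WT 1, WT 2, Tg 1 and Tg 2 by label). The 3 paralogous proteins thus kept the order b, c, a in every H3K4me3 library.

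Mrpl41 (chromosome 2, 24972470 to 24975098) and Mrpl51 (chromosome 6, 125192200 to 125194392), both mitochondria-specific proteins of the large subunit, followed in width. Mrpl41 had H3K4me3 end peaks of 4627, 4185, 4629 and 4346 bp, and Mrpl51 of 4210, 3773, 3648 and 3648 bp. By covered length the leaders for H3K4me3 were Mrpl49 with 9199 ± 284 bp, Mrpl24 with 7294 ± 469 bp and Mrps18b with 7034 ± 125 bp (SD, n = 4 libraries). Mrpl49, the partner of Fau, was also among the top 3 for H3K27ac at 7249 ± 889 bp, with Mrps18b at 7378 ± 833 bp and Mrpl45, a protein near the exit of the nascent chain, at 6464 ± 1204 bp. The least H3K4me3 covered length was at Mrpl11 (1313 ± 153 bp), Mrps2 (1358 ± 183 bp) and Mrpl3 (1366 ± 87.9 bp), and the least H3K27ac at Mrps2 (498 ± 41.5 bp), Mrps22 (602 ± 88.0 bp) and Mrps9 (658 ± 14.5 bp). The narrowest H3K4me3 end peaks by mean were those of Mrps2, Mrpl4 and Mrpl22, whose values include libraries at 0. Mrpl4 and Mrpl22 had end peaks of 1533 and 1662 bp in WT replicate 1, 1535 and 1626 bp in Tg replicate 1 and none in replicate 2 of either label, although H3K4me3 covered the promoter-table start of Mrpl22 in all 4 libraries.

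The longest H3K4me1 covered lengths were at Mrpl33 (6878 and 13034 bp in WT, 9229 and 14497 bp in Tg), Mrps18b (7690 and 11286, then 6161 and 10120 bp) and Mrpl58, a peptidyl-tRNA hydrolase that rescues stalled ribosomes (5723 and 11329, then 5779 and 11611 bp). In each of these genes replicate 2 stood above replicate 1 in both genotypes, as the lists do as a whole. The shortest were at Mrpl3 (461 ± 387 bp), Mrpl9 (663 ± 567 bp) and Mrps33 (739 ± 583 bp). The widest H3K4me1 end peaks were at Mrpl15, Mrps7 and Mrps5, all homologues of bacterial proteins, with means of 2375 ± 2240, 2266 ± 1893 and 2048 ± 1525 bp whose SD comes near the mean. Besides Mrpl4, the smallest were at Mrpl9, which had a single peak of 376 bp in WT replicate 2, and at Mrps2, with 409 bp in WT replicate 2 and 517 and 251 bp in Tg. Across members the mean covered length of H3K27ac ran with that of H3K4me3 (Pearson r = 0.83 on log2 values, Spearman rho 0.82, 78 genes). That of H3K4me1 ran with both, at r = 0.75 and rho 0.78 against H3K4me3 and r = 0.78 and rho 0.79 against H3K27ac. For end peak widths r and rho were 0.77 and 0.72 between H3K27ac and H3K4me3 (75 genes), 0.34 and 0.24 between H3K4me1 and H3K4me3 (77 genes) and 0.18 and 0.19 between H3K27ac and H3K4me1 (75 genes). These correlations are across genes, which share windows and libraries, and are given as a description.

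**Figure D4:**
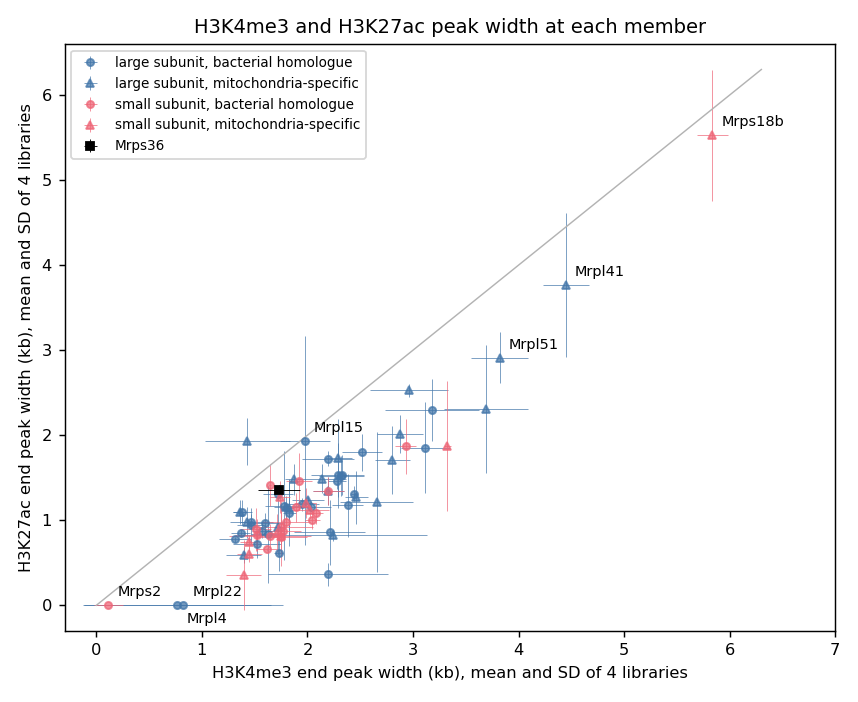
Mean end peak width of H3K4me3 (x axis, kb) against H3K27ac (y axis, kb) for each member, with SD bars over 4 libraries, colours for the subunit and symbols for the protein's origin. The grey line marks equal widths, most members lie below it, and members without an end peak in a library count there as 0.

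Other members with distinct roles lay nearer the middle. Mrpl12, which also binds the mitochondrial RNA polymerase, had H3K4me3 end peaks of 2261 and 2373 bp in libraries labelled WT and 2351 and 2314 bp in those labelled Tg, and H3K27ac end peaks of 1745 and 1397 bp in WT against 1272 and 1723 bp in Tg. Mrps12, a protein of the decoding region, had 2071 and 1770 bp against 1881 and 1949 bp for H3K4me3. Mrps30 had 1823 and 1629 bp against 1903 and 1828 bp, Mrps36 had 1836 and 1738 bp against 1907 and 1452 bp, and Mrpl58 had 2416 and 2172 bp against 2191 and 2385 bp. The H3K4me3 peaks over the start of Mrpl58 were other, narrower ones, of 1354 and 1360 bp against 1494 and 1332 bp. The H3K4me3 values of the labels overlapped in Mrpl12, Mrps12, Mrps36 and Mrpl58, and in Mrps30 both libraries labelled Tg lay just above both labelled WT.

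Marks were compared within members by limma over 8 libraries of 2 marks, without normalization between libraries and with Benjamini-Hochberg adjustment over all genes tested. H3K4me3 covered more than H3K27ac at 66 of 78 members and less at 1, Mrpl45, where all genes gave 69.4% more and 5.49% less. The members' median difference was 0.55 on the log2(bp + 500) scale, and 0.55 over all genes. Mrpl45 had H3K27ac covered lengths of 7245 and 7468 bp in WT against 6323 and 4818 bp in Tg, and H3K4me3 of 4804 and 4008 bp in libraries labelled WT and 4926 and 4361 bp in those labelled Tg, a log2 difference of -0.46 ± 0.14 (SE, limma adjusted p = 0.0156). H3K4me3 end peaks were wider at 64 of 73 members tested and narrower at 0 (all genes 74% and 1.42%), with a median log2 difference of 0.73 against 0.64 over all genes. After quantile normalization, which gives the lists equal distributions and moves the all-gene medians to -0.025 and -0.024, the split became 17 higher and 22 lower for covered length (all genes 27.2% and 29.4%) and 5 and 5 for width (all genes 13.3% and 17.1%). The split between higher and lower members thus depends on the scaling.

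H3K4me1 covered more than H3K27ac at 23 of 78 members and less at 0, against 49.8% and 2.56% of all genes, with a median log2 difference of 0.37 in members and 0.74 over all genes. The count was 13 and 14 without the larger H3K4me1 lists (replicate 2 of WT and of Tg) and 35 without H3K4me1 Tg replicate 1, where 41.0%, 41.2% and 58.6% of all genes were higher. It was 15, 13 and 14 without H3K27ac WT replicate 2, Tg replicate 1 and Tg replicate 2, where 42.2%, 39.5% and 42.0% of all genes were. Leaving out a library thus moved members and all genes the same way. After quantile normalization 6 were higher and 37 lower (all genes 23.7% and 27.8%). Within 1 kb of the gene ends 3 of 77 were higher and 25 lower, where 24.2% and 34.9% of all genes were, so the share of lower members was near that of all genes. H3K4me1 end peaks were narrower than H3K27ac ones at 14 of 64 members and wider at 1, against 25.2% and 3.78% of all genes (28.9% in either direction). The 14 became 7, 7 and 9 without H3K27ac WT replicate 1, WT replicate 2 and Tg replicate 2, where the share of all genes also dropped, to 13.9%, 13.4% and 15.4%. Quantile normalization gave 8 narrower and 12 wider (all genes 17.4% and 17.5%). The wider one was Mrpl34, with H3K4me1 end peaks of 820 and 975 bp in WT against 797 and 951 bp in Tg beside H3K27ac end peaks of 556 and 274 bp in WT against 363 and 264 bp in Tg (log2 difference 1.34 ± 0.31, limma adjusted p = 0.0101). No H3K4me1 library of Mrpl34 overlapped the H3K27ac range, and no H3K27ac peak lay over its start. Mrpl45 and Mrpl34 were chosen after their values were seen.

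Between genotypes, no member passed the threshold for any mark or measure. In limma on quantile normalized log2 values with Benjamini-Hochberg adjustment (threshold 0.05), 0 of 78 members passed for H3K27ac covered length, where 0.275% of 13076 genes did, and 0 of 78 for H3K4me1 and H3K4me3 covered length, where 0% of all genes did. For end peak width, 0 of 73 passed for H3K27ac (0% of all genes), 0 of 65 for H3K4me1 (0.0631% of all) and 0 of 75 for H3K4me3 (0% of all). At an unadjusted p under 0.05 the members numbered 4, 7 and 1 for covered length, where 12.6%, 7.97% and 4.81% of all genes lay, and 5, 2 and 1 for width, where 11.4%, 5.48% and 4.66% of all genes lay, in the order H3K27ac, H3K4me1, H3K4me3. Covered lengths had 500 bp added before log2 was taken, which shrinks differences at short covered lengths. In H3K27ac, 16 members had a mean covered length under 1000 bp. On this scale the 95% interval of the covered length difference lay within 1 log2 unit of 0 for most members. These numbered 77 of 78 in H3K27ac, 59 in H3K4me1 and 78 in H3K4me3. The covered length counts therefore do not bound the fold change in bp. For width, which had nothing added, the interval lay within 1 log2 unit of 0 for 59 of 73, 0 of 65 and 73 of 75 members. Every H3K4me1 width interval thus reached beyond 1 log2 unit. These intervals are not adjusted for the number of genes tested, so they do not show which differences would pass the threshold. In H3K27ac width, 2 members differed by at least 1 log2 unit and did not pass.

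The members' median Tg minus WT difference in H3K27ac was 0.06 for covered length and 0.13 for width, with 51 of 78 (65.4%) and 53 of 73 (72.6%) above 0, beside 55.4% and 58.2% of all genes, whose medians were 0.03 and 0.07. The sign changed with the scaling: without normalization the all-gene medians moved to -0.20 and -0.29, the members' to -0.15 and -0.26, and 8 of 78 and 8 of 73 members were above 0. Both Tg lists of H3K27ac cover less of the genome than both WT lists, and the member medians in bp were lower in both. Of the 10 markers of other cells, 5 could be tested for H3K27ac covered length, with a median of -0.47 and 1 above 0. Their median covered length was 1469 and 667 bp in WT against 239.5 and 428.5 bp in Tg, and 5 of the 10 had no H3K27ac end peak in any library; the part of other cells in the members' values was not tested. The same markers gave a median of 0.06 with 5 of 8 above 0 for H3K4me1 and, by label, 0.41 with 6 of 7 above 0 for H3K4me3. Progenitor markers gave covered length medians of 0.10 with 5 of 7 above 0 for H3K27ac and 0.12 with 7 of 8 for H3K4me1. By label they gave -0.05 with 2 of 8 for H3K4me3. For H3K27ac 1 of the 7 passed the threshold, higher in Tg, where 0.115% of all genes did. For H3K4me1 covered length the members' median was -0.12, with 28 of 78 above 0 (35.9%, all genes 50.5%, median 0.00), and for width 0.02 with 33 of 65 above 0. For H3K4me3 the medians were 0.00 and -0.01, with 41 of 78 and 30 of 75 above 0. The large and small subunit medians were 0.06 and 0.05 for H3K27ac covered length, -0.10 and -0.15 for H3K4me1 and 0.01 and -0.01 for H3K4me3.

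**Figure D5:**
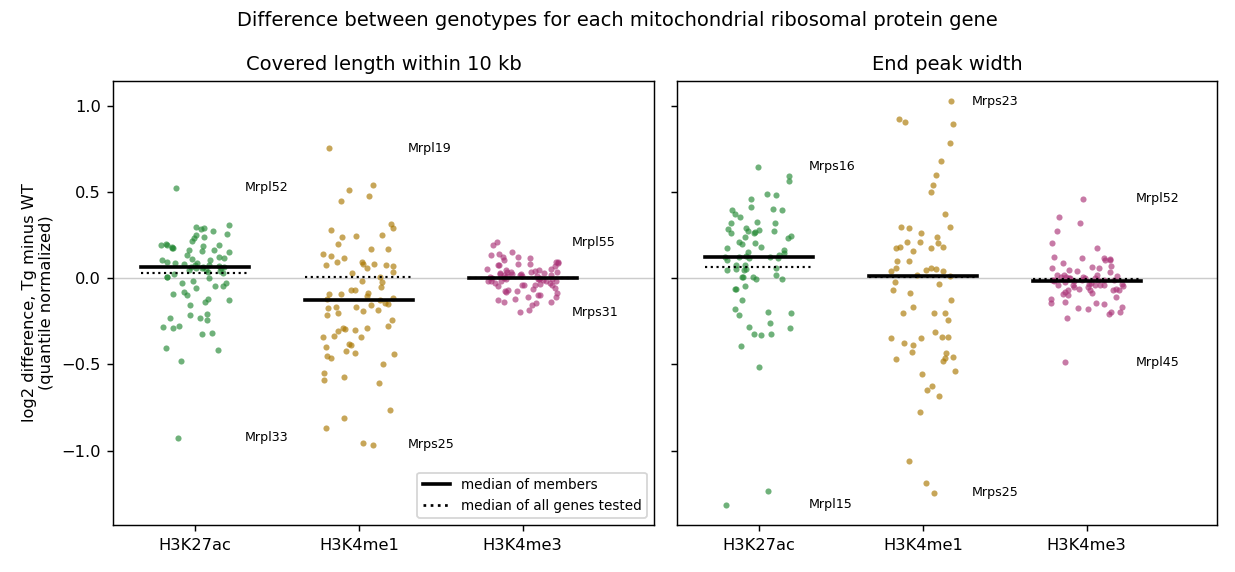
Difference between genotypes (y axis, log2, Tg minus WT after quantile normalization) of each member for each mark (x axis), for covered length (left) and end peak width (right), with the member median as a solid line, the median of all genes tested as a dotted line and the highest and lowest member named. No point passed the adjusted threshold, and the H3K4me3 covered lengths lie within -0.20 and 0.21.

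The lowest H3K27ac differences were at Mrpl33, Mrpl15, Mrpl44 and Mrpl19, all of the large subunit, as are 51 of the 78 members. None passed the threshold, and the large and small subunit medians of covered length were near even, at 0.06 and 0.05. Mrpl33, a homologue of a bacterial protein on chromosome 5 (31613951 to 31622644), had H3K27ac over 5722 and 4705 bp of its window in WT, while the covered length in Tg was 2420 and 1682 bp. Both Tg libraries lay below both WT libraries, with a log2 difference of -0.93 ± 0.25 (SE, limma adjusted p = 0.235). Without Tg replicate 1 the adjusted p was 0.0502, the lowest of any member in any setting tried. Its H3K27ac end peaks were 1021 and 2076 bp wide against 571 and 1020 bp (-0.52 ± 0.44, limma adjusted p = 0.657), a sign that turned without WT replicate 2. At Mrpl15 the end peak measured 3382 and 2460 bp in WT against 623 and 1279 bp in Tg, again without overlap (-1.31 ± 0.25, limma adjusted p = 0.193). The covered lengths of Mrpl15 differed less, at 4401 and 3360 bp in WT against 2216 and 3132 bp in Tg. Replicate 2 of Tg thus lay close to replicate 2 of WT by covered length, though its widest peak was narrower. At Mrpl44, which has a fold like that of RNase III, the end peak measured 2309 and 1304 bp in WT against 377 and 871 bp in Tg (-1.23 ± 0.37, limma adjusted p = 0.328). Its covered lengths were 2547 and 1770 bp against 886 and 1398 bp (-0.48 ± 0.15, limma adjusted p = 0.307). Mrpl19 had 1897 and 1421 bp covered in WT against 590 and 1255 bp in Tg (limma adjusted p = 0.421).

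The highest H3K27ac differences were mostly smaller, and in 4 of 6 the genotypes overlapped. Overlap is judged throughout on bp before normalization, while the log2 differences between genotypes are quantile normalized. Both Tg lists of H3K27ac cover less of the genome than both WT lists, so in bp lower Tg values separate more readily than higher ones. The share of all genes that separate was not computed. Mrpl52 had 741 and 802 bp covered in WT against 878 and 1301 bp in Tg, without overlap (0.53 ± 0.16, limma adjusted p = 0.275). Mrps11 had 1476 and 1480 bp against 1429 and 1838 bp, and Mrpl38 2448 and 2141 bp against 1923 and 2995 bp, and both overlapped. In width, Mrps16 had 629 and 776 bp in WT against 513 and 1290 bp in Tg, Mrpl52 741 and 802 bp against 878 and 867 bp, and Mrps25 861 and 701 bp against 802 and 915 bp, with limma adjusted p of 0.520, 0.451 and 0.352.

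In H3K4me1 the 3 lowest covered length differences were at genes of the small subunit, which holds 26 of the 78 members, and none passed the threshold. Mrps25 had 1824 and 1992 bp in WT against 265 and 1314 bp in Tg, without overlap (-0.97 ± 0.32, limma adjusted p = 0.564). Mrps28 had 2150 and 3415 bp against 378 and 2230 bp and overlapped, and Mrps11 had 4094 and 5279 bp against 1459 and 3099 bp and did not (limma adjusted p = 0.558 and 0.515). The highest were Mrpl19 (1156 and 3972 bp in WT, 3221 and 4745 bp in Tg), Mrps2 (401 and 1649, 1697 and 1342 bp) and Mrpl45 (3564 and 6834, 5514 and 8899 bp), and all 3 overlapped. In width the extremes were Mrps23 (1.03), Mrpl55 (0.92) and Mrpl19 (0.91) at the top and Mrps25 (-1.24), Mrpl52 (-1.19) and Mrpl20 (-1.06) at the bottom, each log2 value with an SE of 0.59. That SE was the same for all 65 members, so for H3K4me1 widths the SE and p-values do not measure a named gene's own spread. Among these widths the genotypes did not overlap at Mrps23, Mrps25 and Mrpl20.

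In H3K4me3 the differences were small. By label, Mrpl55 had 4897 and 4445 bp covered in WT against 5561 and 5378 bp in Tg (0.21 ± 0.07), Mrpl40 4178 and 3774 against 5062 and 4179 bp (0.19), and Mrps15 3433 and 3693 against 4338 and 3642 bp (0.15). Mrpl55 and Mrpl40 did not overlap between labels. At the other end stood Mrps31 (2819 and 2135 against 1902 and 2183 bp, -0.20), Mrps2 (1553 and 1474 against 1184 and 1220 bp, -0.19) and Mrpl42 (1732 and 1410 against 1473 and 1163 bp, -0.15), and Mrps2 alone of these did not overlap. In width the highest were Mrpl52 (0.46), Mrps15 (0.36) and Mrpl34 (0.32), and the lowest Mrpl45 (-0.49), Mrps24 (-0.23) and Mrpl20 (-0.20). At Mrpl52 and Mrpl34 the widest peak was not the same peak in every library. Their peaks over the start measured 1495 and 1349 against 1654 and 1801 bp at Mrpl52, and 1157 and 998 against 3048 and 1203 bp at Mrpl34. The end peaks measured 2386 and 1349 against 3413 and 1801 bp, and 1899 and 1928 against 3048 and 1898 bp. Those of Mrpl45 measured 1718 and 1529 against 1635 and 844 bp, and no peak lay over its start in replicate 2 labelled Tg. In width the labels did not overlap at Mrps15 and Mrps24. The limma adjusted p was 0.914 or more for every member in both H3K4me3 measures.

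Peaks of the 4 lists of a mark were merged into regions, and those found in 2 libraries of a single genotype and in no library of the other were counted near members. For H3K27ac, 2 of the 158 regions near members were found in Tg alone and 1 in WT alone, where 1.94% and 4.9% of all regions were. For H3K4me1 the counts were 2 and 11 of 439 regions, where 1.97% and 3.25% of all were, and for H3K4me3 by label 1 and 1 of 168, where 1.47% and 2.24% were. The H3K27ac regions in Tg alone were 370 bp wide near Mrpl43 (mm10 chr19:45016421-45016790) and 648 bp near Mrps11 (chr7:78793709-78794356), and the region in WT alone was 933 bp near Mrps23 (chr11:88193627-88194559). The 11 H3K4me1 regions in WT alone lay near 8 members, with 2 each near Mrpl52, Mrps18b and Mrps11, and single ones near Mrpl34, Mrpl39, Mrpl40, Mrps10 and Mrps18a. Those near Mrps18b were 712 bp (chr17:35923341-35924052) and 1019 bp wide (chr17:35926163-35927181), beyond the start of the gene. The H3K4me1 regions in Tg alone were 837 bp wide near Mrpl45 and 571 bp near Mrps15. The H3K4me3 regions, of 457 bp near Mrpl55 and 242 bp near Mrps2, lay at chr11:59212569-59213025 and chr2:28466067-28466308. At 126 of 158, 208 of 439 and 132 of 168 regions near members the mark was present in all 4 libraries, against 19612 of 48376, 46121 of 139885 and 24578 of 44957 regions over the genome.

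Directly over the start, H3K27ac was present in both WT libraries and neither Tg library at 2 of 69 members, where 1.43% of all starts were, and in both Tg and neither WT at 1, where 0.219% were. In the per-library mean H3K27ac covered 90.9% of member starts but 42.4% of all starts. Fewer of all starts could therefore be split, and the shares cannot be compared directly. At Mrpl41 the start lay under peaks of 4555 and 4439 bp in WT and under none in Tg, although Tg had end peaks of 3013 and 3049 bp within 1 kb. At Mrpl17 the start lay under peaks of 1098 and 1297 bp in WT and under none in Tg. At Mrpl23 it lay under peaks of 823 and 886 bp in Tg and under none in WT. H3K4me3 covered all 3 starts in all 4 libraries. No member start was split in this way for H3K4me1, where 0.699% (WT) and 0.474% (Tg) of all starts were, or for H3K4me3, where 0.425% and 0.0972% were. For H3K4me1, 67 of the 69 member starts lay under no peak in any library, so its count says nothing about the genotypes. These 3 members were named after their values were seen.

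The rest of the mitochondrial translation pathway showed no calls between genotypes either. Of 61 genes in 5 lists (other ribosomal proteins, translation factors, assembly and ribosomal RNA modification, aminoacyl-tRNA synthetases, transcription and messenger RNA), 0 of the 60 tested passed for H3K27ac covered length and 0 of 61 for H3K4me1 and H3K4me3, and 0 of 56, 49 and 59 passed for width, in the same fits. Over all genes tested, 0.275%, 0% and 0% passed for covered length and 0%, 0.0631% and 0% for width, so these counts were near the shares of all genes. The medians of covered length were 0.01, 0.00 and 0.00 in the order H3K27ac, H3K4me1, H3K4me3. The 21 assembly and modification genes, such as Nsun4 and Ddx28, had a median H3K27ac difference of -0.07 with 8 above 0, and the 17 aminoacyl-tRNA synthetase genes 0.04 with 12 above 0. Cytosolic ribosomal protein genes gave 0.11 for H3K27ac, -0.08 for H3K4me1 and, by label, -0.10 for H3K4me3, where members gave 0.00; this difference between the gene groups was not tested.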

How the data were processed

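Each of the 12 libraries came with 1 deposited peak list, made by the authors on build mm10 with tools that include MACS2, Bowtie2, Trim Galore, FastQC, deepTools and SAMtools, per the submitters' processing notes. Versions, settings and any control library are not given in the sources used here. Libraries were single-end reads of 75 bp, per the labels' protocols. Each deposited peak carries its position, a score, a ratio (fold enrichment), a −log10 p-value and a −log10 q-value. The lists hold no counts, so no interval or limit that needs depth was computed, and peak strength was used only for a stricter threshold (−log10 q of at least 5).

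Lengths were computed from peak positions against RefSeq genes of GRCm38.p6 with Python 3.11.15 (pandas 2.3.3, numpy 2.4.6). Covered lengths plus 500 bp, and end peak widths, were taken as log2, quantile normalized for genotype comparisons and tested with limma 3.58.1 in R 4.3.3, two-sided, with Benjamini-Hochberg adjustment over all genes. Genes needed a peak in at least 2 libraries (covered length) or in all libraries compared (width). The procedure was tested on simulated data. Gene starts came from the promoter entry nearest the gene end, and 9 members had no entry. Alternatives changed the normalization, added length, filter, window, peak threshold, joining of peaks, replicate block and libraries. The members and lists were chosen with earlier results of these data known. Named are the 3 highest and 3 lowest members per mark and measure, by difference and by level, and 9 members fixed for their roles.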

Additional observations from a re-analysis of the deposited data

How the results depend on the processing

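In all 73 alternatives to the 6 genotype comparisons, 0 members passed the threshold, while the number of genes called over the whole table ranged from 0 to 114 for H3K27ac covered length and from 0 to 20 for H3K4me1 width. For H3K27ac, 36 genes became 0 without either WT library, 84 without Tg replicate 1 and 114 without Tg replicate 2. Replicate numbers are shared between genotypes but the labels do not say that they pair libraries: deviations of same-numbered libraries correlated with r of -0.20, 0.21 and -0.083 for covered length and -0.061, 0.16 and -0.015 for width (H3K27ac, H3K4me1, H3K4me3). With the replicate block 6 genes and 0 members were called for H3K27ac covered length in place of 36 genes. Crossed numbers, an alternative chosen after seeing the data, gave 15 genes and 0 members. For H3K4me3 against H3K27ac the block gave 64 members higher and 1 lower by covered length (all genes 67.5% and 5.23%) and 64 and 0 by width (71.1% and 1.35%). For H3K4me1 it gave 26 and 0 (53.9% and 3.19%), then 1 and 18 (4.56% and 29.9%).

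Between marks, leaving out single libraries gave 1 to 2 members lower in H3K4me3 than H3K27ac by covered length (all genes 4.17% to 7.19%). For H3K4me1 it gave 13 to 35 higher and 0 to 1 lower by covered length (all genes 39.5% to 58.6% and 1.79% to 3.45%). By width it gave 1 to 3 wider and 7 to 21 narrower (all genes 2.35% to 4.77% and 13.4% to 32.1%). Quantile normalization gave 17 higher and 22 lower, 5 and 5, 6 and 37, and 12 and 8 in the 4 mark comparisons. In H3K4me1 against H3K27ac, stricter peaks gave 6 and 2 of 78 by covered length (all genes 21.9% and 3.24%) and 0 and 4 of 28 by width (3.70% and 18.6%), a window of 1 kb gave 3 and 25 of 77 (24.2% and 34.9%), and joining peaks under 500 bp apart gave 5 wider and 7 narrower of 64 (10.2% and 16.4%). Regions of a single genotype (Tg, then WT) with stricter peaks numbered 0 and 2 of 140 for H3K27ac (all regions 1.93% and 5.51%), 6 and 14 of 341 for H3K4me1 (1.93% and 2.21%) and 0 and 2 of 142 for H3K4me3 (1.08% and 2.37%). Within 1 kb, with the same shares of all regions as for 10 kb, they numbered 1 and 1 of 84, 1 and 2 of 157, and 0 and 1 of 87.

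Signs turned, all for members not past the threshold, within 1 kb at Mrpl19 (H3K27ac, 0.12), Mrpl40 (H3K4me3, -0.0098), Mrps15 (H3K4me3, -0.015) and Mrpl42 (H3K4me3, 0.044), and at Mrps2 (H3K4me1) to -0.11 with stricter peaks. Leaving out single libraries gave -0.022 to 1.14 at Mrps2 (H3K4me1; the lowest without Tg replicate 1), -1.16 to 0.091 at Mrpl33 (H3K27ac width; the highest without WT replicate 2) and -0.91 to 0.0066 at Mrpl45 (H3K4me3 width; the highest without Tg replicate 2). The cause of these shifts was not tested. With 2 libraries a group, leaving out a library assumes that the lone one varies like the others. Depth is unknown, so a missing peak does not show a missing mark.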
